A study of Ovis aries with 6 samples.

Results

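Potassium channels and the related hyperpolarization-activated cation channels were described across 6 full-length complementary DNA libraries from sheep (Ovis aries), sequenced on Oxford Nanopore devices. The members were chosen by name, as every feature of the deposited tables whose symbol starts with KCN and a further letter or is an HCN gene, with a single gene left aside, which gave 98 genes of 26067 features. According to the study's design text, 3 animals were small-tailed Han sheep, the breed with high reproduction, and 3 were Wadi sheep, the breed with low reproduction, all healthy and of like body composition. The libraries are called C1 to C6 and labelled as pituitary, and which animal or breed each came from is not given. Breeds were therefore not compared, each library stands for itself with no replicates, and neither treatment, age nor pooling is given in the labels. Levels are counts per 1000000 gene counts (CPM), from estimated counts rounded to whole numbers, and TPM (transcripts per 1000000) are the authors' values, which are per length. Intervals are 95% intervals that cover counting error only, since reads of amplified complementary DNA are not independent molecules.

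Potassium channels let potassium leave a cell and so set its resting potential, shorten its action potentials and space its firing. Voltage-gated members (KCNA to KCNH, KCNQ) open on depolarization, inward rectifiers (KCNJ) pass current near rest and are partly gated by G proteins or ATP, tandem-pore members (KCNK) give leak current, and KCNM, KCNN and KCNT channels open with intracellular calcium or sodium. HCN channels open on hyperpolarization and carry a depolarizing cation current. Hormone-producing pituitary cells fire spontaneously, and the calcium that enters during their action potentials drives secretion. The roles given for single genes come from work in humans and rodents. In rodent pituitary cells, calcium-activated channels shape the bursts, ether-à-go-go-related channels hold the resting potential of lactotrophs, and G protein-gated inward rectifiers respond to dopamine and somatostatin.

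The libraries stood apart in ways that go against a common label. The 7 pituitary hormone genes in the tables (PRL, GH, CGA, LHB, FSHB, TSHB and POMC) summed to 139, 47.2, 50.3, 142071, 299657 and 47146 CPM in C1 to C6, with 3, 2, 3, 7, 7 and 7 of them at 10 counts or more and 2 of them at 0 in each of C1, C2 and C3. The 9 endocrine pituitary markers summed to 56.2, 66.6, 74.2, 1950.0, 4913 and 530.4 CPM, with the lineage factor POU1F1 and the homeobox factor PITX1 at 0 counts in C1, C2 and C3. The 10 markers of cerebellar granule neurons, which all had at least 10 counts in C1, C2 and C3, summed to 4435, 4461, 4136, 117, 90.5 and 151 CPM, and 8 general neuron markers to 5534, 5259.6, 5114, 684, 882 and 427 CPM, with 7, 8, 8, 7, 7 and 6 of them at 10 counts or more. The defining pituitary markers were thus at or near 0 in C1, C2 and C3. These libraries held 1981644 (C6) to 2732911 (C2) gene counts, so that 1 count was worth 0.366 to 0.505 CPM. In such bulk libraries, fewer cells of a type and less RNA per cell cannot be told apart.

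The channel genes together stood at 8343, 6470.4, 6399, 1386, 1072 and 1522 CPM in C1 to C6. C1, C2 and C3 were each higher than any of C4, C5 and C6, and the summed level in C1 was 7.78-fold higher than in C5 (95% interval 7.47 to 8.11). KCND genes, nearly all of it KCND2, took 40.2, 29.9, 30.3, 8.46, 20.1 and 8.52% of the members' counts in C1 to C6. Without KCND2 the sums were 5035, 4565, 4491, 1272, 859 and 1399 CPM in C1 to C6, and C1 was 5.86-fold higher than C5. With the hormone genes left out of each library's total, the summed level in C1 was 5.45-fold that in C5. The sum of the general neuron markers was high and low in the same libraries, and their part in the summed level was not tested. Among these markers only NEFM went another way, highest in C5 at 147 CPM, beside 87.0 CPM in C1.

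Compared per length, within each library, a few genes made up most of the members' TPM, and the leading gene was not the same in all of them. In C1 the 3 highest were KCND2 at 3954, KCNIP4 at 2859 and KCNK1 at 2244 TPM. The same 3 genes were in front in C2 and C3, with KCNK1 ahead in C2 at 2505 TPM beside KCND2 at 2491 TPM. In C4 the 3 highest were KCNQ1 at 659, KCNJ3 at 273 and KCND2 at 228 TPM. In C5 they were KCND2 at 486, KCNQ1 at 397 and KCNK1 at 338 TPM. In C6 KCNQ1 alone, at 1134 TPM, was 49.4% of the members' TPM. Among the genes described with values here that had at least 10 counts in C1, the TPM for each CPM in C1 ran from 0.0114 in KCNH7 to 6.01 in KCNK13, so that the order in TPM rests on lengths that the files do not hold. As a share of the members' TPM, KCNQ genes were 2.93, 3.51, 3.70, 31.5, 18.4 and 49.5% in C1 to C6, and KCND genes 31.0, 24.4, 24.9, 11.0, 22.6 and 9.26%.

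**Figure D1:**
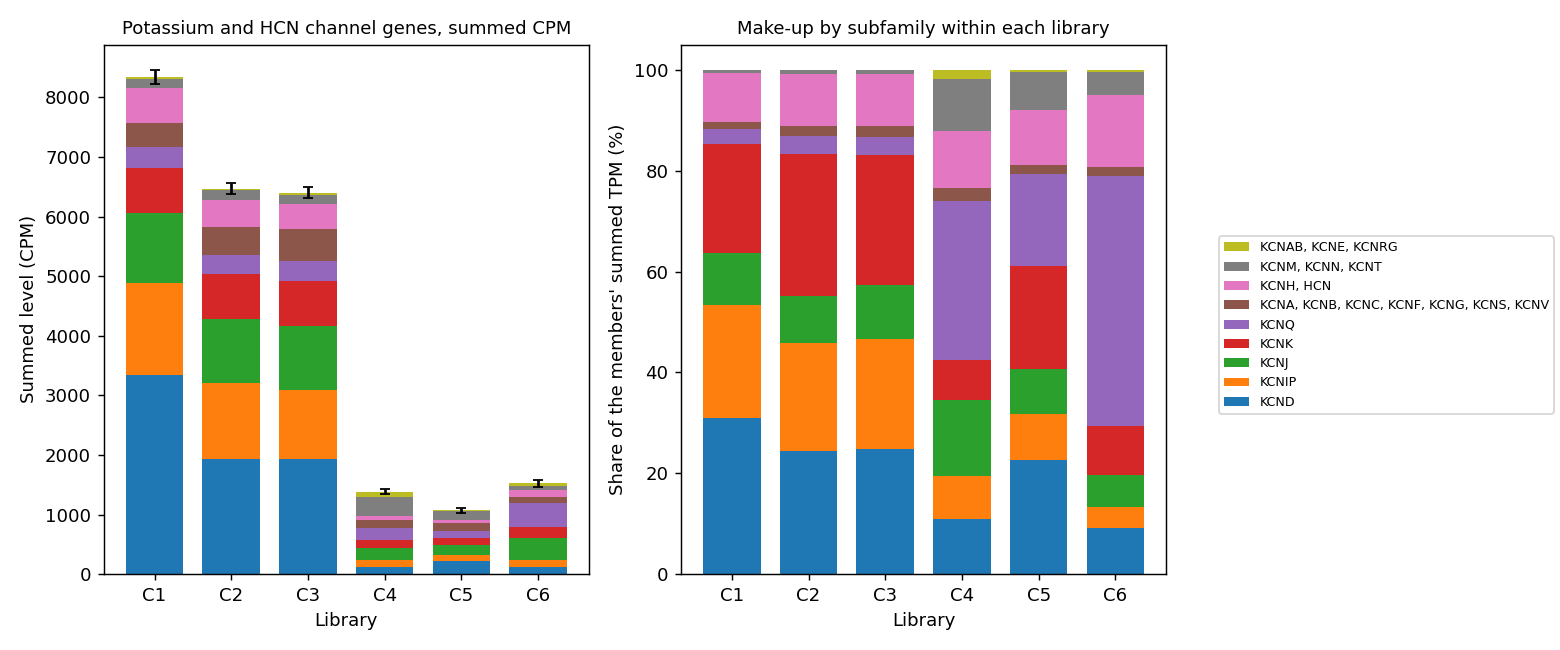
Left, summed level of the 98 potassium and HCN channel genes in each library in CPM, stacked by subfamily, with 95% Wilson intervals of the sum as black bars. Right, the share of each subfamily in the members' summed TPM in percent: KCND, KCNIP and KCNK fill most of C1, C2 and C3, and KCNQ is 49.5% of C6.

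Of the 98 genes, 45 reached 60 counts over the 6 libraries and were tested for equal levels by a chi-square test of homogeneity, with Benjamini-Hochberg adjustment over all 13248 features that reached the minimum. A feature counted as called when its adjusted p was under 0.05 and its highest library was at least 2 times its lowest. All 45 channel genes were called, and 80.9% of all features tested were. The test compares these libraries beyond counting error and not the breeds. The median ratio of the highest to the lowest library was 13.3 over the 45 genes and 4.31 over all features tested, with counts of 0 set to 3 counts. The highest library was C1 for 13 of the 45 (among all features, 17.1% were called with C1 highest), C2 for 6 (12.3%), C3 for 12 (13.6%), C4 for 4 (11.4%), C5 for 4 (9.42%) and C6 for 6 (17%). Members with at least 10 counts numbered 41, 47, 47, 28, 27 and 40 in C1 to C6, and 39, 41, 42, 27, 25 and 40 when all libraries were thinned to 1981644 counts. Before thinning these were 41.8, 48.0, 48.0, 28.6, 27.6 and 40.8% of the members, beside 46.6, 48.1, 48.9, 46.1, 43.4 and 45.4% of all features.

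Fewer libraries were also tested, a choice made after the values were seen. With C1, C2 and C3 left out, 26 members reached 60 counts and 18 of them were called, beside 40.2% of all features tested in C4, C5 and C6. With C4, C5 and C6 left out, 35 members reached the minimum and 2 were called, beside 10.3% of all features. KCNF1 was among these, and for it C3 was 3.57-fold higher than C2 (95% interval 2.37 to 5.51).

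**Figure D2:**
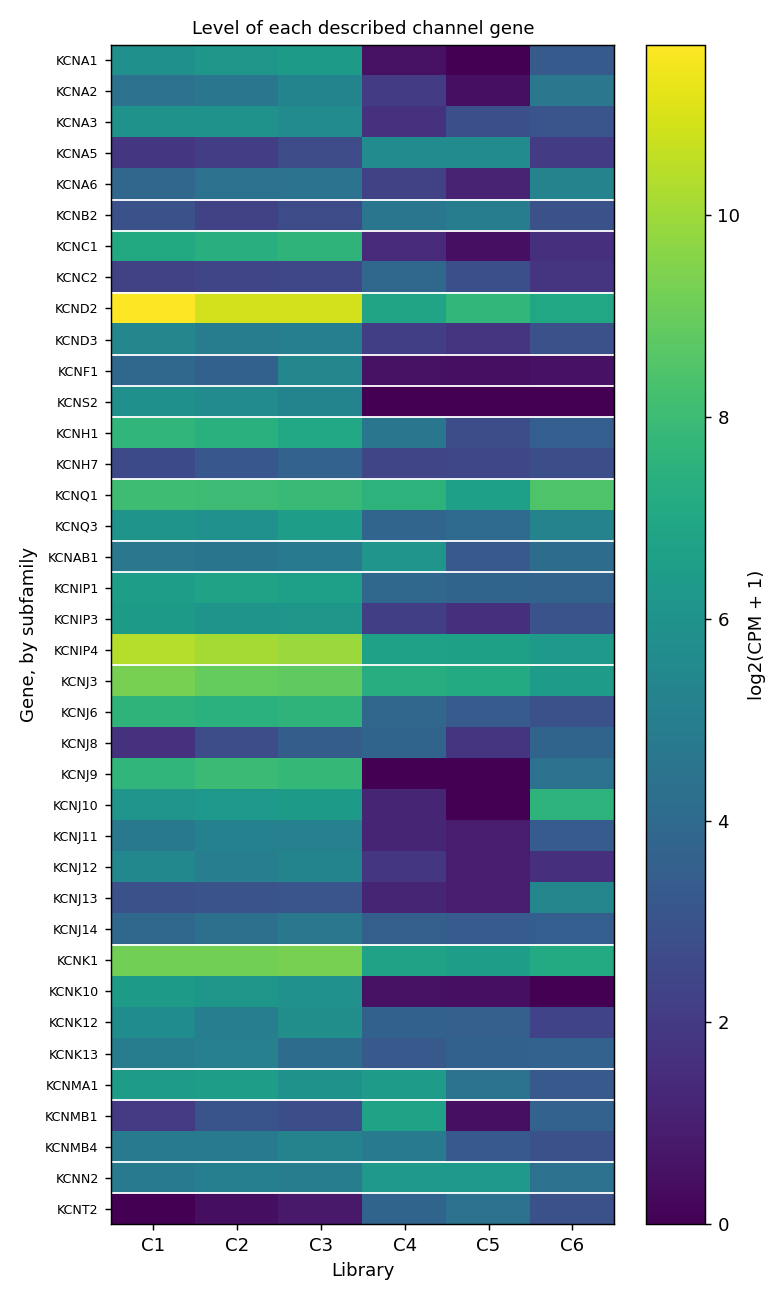
Level of 38 channel genes that reached 60 counts in all and 10 CPM in some library, as log2(CPM + 1), with libraries C1 to C6 across and genes down, white lines parting the subfamilies. KCND2 and KCNIP4 are the brightest genes in C1, C2 and C3, while KCNA5, KCNB2, KCNN2 and KCNT2 are brighter in C4 and C5 than in the other libraries.

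KCND genes encode the pores of fast-inactivating A-type channels, which delay firing in neurons. KCND2 stood at 3308, 1905, 1908, 114, 213 and 123 CPM in C1 to C6. C1 was above every other library and C4 and C6 were the lowest, and C1 was 29.1-fold higher than C4 (95% interval 25.7 to 33.0). KCND3, the other measured pore gene, was at 42.0, 29.3, 31.8, 3.50, 2.48 and 6.56 CPM in C1 to C6, again high in C1, C2 and C3, and C1 was 16.9-fold higher than C5 (95% interval 7.51 to 47.3). KCND1 had 0 counts in every library.

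KCNIP genes encode calcium-binding proteins that attach to KCND pores and bring them to the membrane. KCNIP4 was at 1351, 1097, 978, 103, 98.4 and 77.7 CPM in C1 to C6, and C1 was 17.4-fold higher than C6 (95% interval 14.8 to 20.6). KCNIP1 was at 93.5, 106, 97.2, 14.4, 12.8 and 12.1 CPM in C1 to C6, with C1, C2 and C3 close together. KCNIP3, whose product also acts as a transcriptional repressor, was at 80.6, 65.1, 71.9, 3.50, 2.07 and 7.06 CPM in C1 to C6, and C1 was 39.0-fold higher than C5 (95% interval 16.4 to 122). In all 3 genes the levels in C4, C5 and C6 lay below those in C1, C2 and C3. The ratio of KCND2 to KCNIP4 counts, a pair chosen after the values were seen, was 2.45 (95% interval 2.35 to 2.55) in C1 and 1.10 (95% interval 0.920 to 1.32) in C4. In C5 it was 2.16 (95% interval 1.85 to 2.53), closer to that in C1 than to that in C4, although the level of KCNIP4 in C5 was near that in C4. In TPM, KCND2 and KCNIP4 were at 3954 and 2859 in C1, 228 and 161 in C4, and 486 and 192 in C5. The likeness of C5 to C1 was thus seen in counts and not in TPM, where C1 was closer to C4.

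KCNA genes encode delayed rectifiers, several of them placed along axons. KCNA1 was at 57.9, 72.5, 82.1, 0.438, 0 and 9.08 CPM in C1 to C6, with a single count in C4 and none in C5. KCNA3, also known from lymphocytes, was at 63.5, 61.1, 49.6, 2.19, 6.20 and 7.57 CPM in C1 to C6, and C1 was 29.0-fold higher than C4 (95% interval 12.1 to 90.6). KCNA2, which often joins KCNA1 in axons, was at 19.7, 23.4, 37.8, 3.06, 0.413 and 24.2 CPM in C1 to C6. Here C6 lay within the span of C1, C2 and C3, unlike KCNA1, for which C6 was far below them. KCNA6 was at 13.3, 20.5, 20.8, 3.94, 1.24 and 36.3 CPM in C1 to C6 and had its highest level in C6. KCNA5, known from heart and vascular muscle, was at 2.57, 3.29, 5.30, 48.1, 48.8 and 3.03 CPM in C1 to C6, and C5 was 19.0-fold higher than C1 (95% interval 8.45 to 52.7). It was high in C4 and C5 and low in the other 4 libraries. KCNA4, too low for the test, had 2, 2, 4, 2, 24 and 2 counts in C1 to C6. Among the beta subunits, which bind KCNA pores, KCNAB1 was at 24.4, 22.3, 26.1, 67.8, 8.68 and 16.7 CPM in C1 to C6, and C4 was 7.82-fold higher than C5 (95% interval 4.94 to 13.0). KCNAB2 had at most 7 counts and KCNAB3 at most 2.

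KCNB genes encode slower delayed rectifiers that form clusters on cell bodies, and KCNF, KCNG, KCNS and KCNV genes encode subunits that conduct only when joined to KCNB pores. KCNB2 was at 6.43, 4.03, 5.30, 22.8, 29.3 and 6.56 CPM in C1 to C6, and C5 was 7.29-fold higher than C2 (95% interval 3.84 to 15.3). It was high in C4 and C5, where the summed level was low. The measured silent partners, KCNF1 and KCNS2, were at or near 0 in C4, C5 and C6. KCNF1 was at 14.6, 11.3, 40.5, 0.438, 0.413 and 0.505 CPM in C1 to C6, and KCNS2 at 58.3, 48.7, 38.2, 0, 0 and 0 CPM in C1 to C6, with 0 counts in C4, C5 and C6. For KCNS2, C1 was at least 38.5-fold higher than C6. KCNG genes had at most 15 counts in any library and KCNV1 at most 11.

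KCNC genes encode channels that open only at strong depolarization and allow fast firing. KCNC1 was at 136, 162, 196, 1.75, 0.413 and 2.02 CPM in C1 to C6, with 4, 1 and 4 counts in C4, C5 and C6, and C3 was 474-fold higher than C5 (95% interval 84.7 to 18768). It was high in C1, C2 and C3, and near 0 in the others. KCNC2 had another order, at 3.86, 4.39, 4.54, 14.0, 6.20 and 2.52 CPM in C1 to C6, with C4 the highest and C6 the lowest. KCNC4 had at most 6 counts.

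KCNH genes encode the ether-à-go-go family. KCNH1 was at 209, 173, 125, 23.2, 5.79 and 10.1 CPM in C1 to C6, and C1 was 36.2-fold higher than C5 (95% interval 21.3 to 66.6). KCNH7, of the ether-à-go-go-related branch, was at 5.15, 8.05, 11.7, 4.38, 4.55 and 6.06 CPM in C1 to C6, with a chi-square test of homogeneity giving an adjusted p of 0.0124. KCNH8 had 17, 10, 21, 11, 4 and 4 counts in C1 to C6, with an adjusted p of 0.00380 in the same chi-square test. The call of KCNH7 was lost with C3 left out (ratio 1.84, adjusted p = 0.407 in the chi-square test). Both genes varied over a narrower range than KCNH1. KCNH2, the ether-à-go-go-related gene best known from the heart, had at most 2 counts in any library. KCNH6 had 1, 0, 0, 8, 5 and 0 counts in C1 to C6, so that C4 and C5 held 13 of its 14 counts.

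KCNQ1 encodes the pore of a slow channel of heart and epithelia that pairs with KCNE subunits. It was at 262, 258, 232, 187, 94.6 and 359 CPM in C1 to C6, highest in C6 and lowest in C5, and C6 was 3.80-fold higher than C5 (95% interval 3.27 to 4.43). With C5 left out the ratio was 1.92, and KCNQ1 was no longer called. A long antisense RNA is transcribed within KCNQ1 in human and mouse. No source used here gives the use of strand in counting, so reads of the gene and of such an RNA cannot be told apart. The KCNE genes were low, KCNE4 being the most frequent with 2, 4, 2, 24, 4 and 18 counts in C1 to C6. KCNQ3, a subunit of the neuronal M-current, was at 64.7, 58.5, 91.2, 13.1, 16.1 and 36.8 CPM in C1 to C6, and C3 was 6.94-fold higher than C4 (95% interval 4.74 to 10.5).

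KCNJ3, KCNJ6, KCNJ9 and KCNJ5 encode the subunits of G protein-gated inward rectifiers. KCNJ3 was at 619.6, 487, 461, 155, 141 and 87.8 CPM in C1 to C6, and C1 was 7.06-fold higher than C6 (95% interval 6.03 to 8.31). KCNJ6 was at 192, 175, 191, 13.6, 9.09 and 6.56 CPM in C1 to C6, and C1 was 29.2-fold higher than C6 (95% interval 16.9 to 55.3). KCNJ9 was at 208, 252, 223, 0, 0 and 20.2 CPM in C1 to C6, and C2 was at least 192-fold higher than C4. KCNJ9 had 8.65 TPM in C1, where KCNJ6 had 529 TPM at a like CPM. All 3 were high in C1, C2 and C3, but they did not stand in a fixed ratio. KCNJ3 had 3.23 (95% interval 2.91 to 3.60), 2.78 (95% interval 2.50 to 3.09) and 2.42 (95% interval 2.18 to 2.69) counts for each count of KCNJ6 in C1, C2 and C3. In C4, C5 and C6 it had 11.4 (95% interval 7.90 to 17.1), 15.5 (95% interval 10.0 to 25.0) and 13.4 (95% interval 7.62 to 25.6). The pair was chosen after the values were seen. In TPM, KCNJ3 and KCNJ6 were at 837 and 529 in C1, 273 and 34.6 in C4, 179 and 9.95 in C5, and 82.7 and 30.3 in C6. The gap in C6 was thus much smaller in TPM than in counts, and KCNJ6 had 13 counts there. In C4 and C5 KCNJ9 was at 0 counts, which, taken as at most 3 counts, allows up to 1.31 CPM in C4 and 1.24 CPM in C5. KCNJ5 had at most 2 counts.

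**Figure D3:**
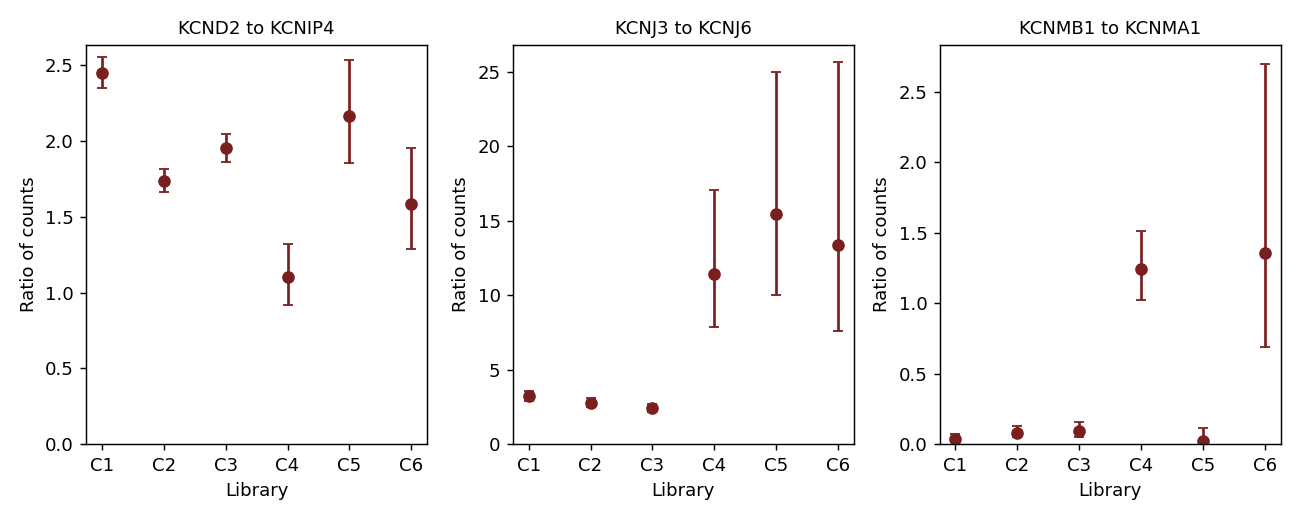
Ratio of the counts in each library for 3 gene pairs, KCND2 to KCNIP4, KCNJ3 to KCNJ6 and KCNMB1 to KCNMA1, with exact conditional 95% intervals as bars and a linear axis from 0. The ratio of KCNJ3 to KCNJ6 is between 2.42 and 3.23 in C1, C2 and C3 and at least 11.4 in C4, C5 and C6, while that of KCNMB1 to KCNMA1 is above 1 in C4 and C6 and below 0.1 elsewhere.

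The remaining inward rectifiers varied along other lines. KCNJ10, the main potassium-buffering channel of glia, was at 67.3, 75.4, 82.1, 1.31, 0 and 187 CPM in C1 to C6, and C6 was at least 151-fold higher than C5. KCNJ13, known from choroid plexus and retinal pigment epithelium, was at 6.43, 6.95, 7.57, 1.31, 0.827 and 40.4 CPM in C1 to C6, and C6 was 48.8-fold higher than C5 (95% interval 13.1 to 410.2). Both were highest in C6, with C1, C2 and C3 between C6 and the pair C4 and C5. In that library the 6 astrocyte markers in the tables summed to 1321 CPM and the 3 oligodendrocyte and 4 Schwann cell markers to 3221 and 9168 CPM. Over C1 to C5 these sums were at most 1119, 169.8 and 121 CPM, with 1 of the Schwann cell markers at 0 in each of C1, C2 and C3, and their part in the 2 channel genes was not tested. Among the astrocyte markers AQP4, ALDH1L1, SLC1A2 and AGT were highest in C6. SLC1A3 and GJA1 were highest in C3, at 256 and 207 CPM, beside 105 and 156 CPM in C6. KCNJ11, the pore of ATP-sensitive channels in endocrine cells and neurons, was at 25.3, 34.0, 33.3, 1.31, 0.827 and 9.59 CPM in C1 to C6, and C2 was 41.2-fold higher than C5 (95% interval 11.1 to 345). KCNJ8, the pore of the vascular ATP-sensitive channel, was at 2.14, 5.85, 9.84, 12.7, 2.48 and 12.6 CPM in C1 to C6, with C3, C4 and C6 overlapping in their intervals. KCNJ12, a strong rectifier with a near-identical copy in humans, was at 43.3, 30.7, 38.2, 2.63, 0.827 and 2.02 CPM in C1 to C6. KCNJ14 was at 14.2, 18.7, 24.6, 10.5, 9.09 and 10.1 CPM in C1 to C6, among the smallest spreads of the measured members, and C3 was 2.71-fold higher than C5 (95% interval 1.65 to 4.61). Between the same libraries the ratio was 1.96 with DESeq2 size factors and 1.35 in TPM.

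KCNK1 encodes a weakly conducting leak channel. It was at 579.7, 593, 621, 107, 90.9 and 140.3 CPM in C1 to C6, and C3 was 6.83-fold higher than C5 (95% interval 5.93 to 7.90). C4, C5 and C6 were all far below C1, C2 and C3, and the highest of these was C2 with other scalings. KCNK10, a leak channel gated by stretch and lipids, was at 82.3, 71.7, 60.2, 0.438, 0.413 and 0 CPM in C1 to C6, with a single count in C4, a single count in C5 and none in C6, and C1 was at least 54.4-fold higher than C6. Its relative KCNK2 had 22, 22, 3, 3, 0 and 19 counts in C1 to C6. It was low in C3, C4 and C5, and so did not follow KCNK10. KCNK12 and KCNK13 are the pair of halothane-inhibited leak channels. KCNK12 was at 50.6, 30.7, 53.7, 11.4, 10.7 and 4.04 CPM in C1 to C6. KCNK13, found in microglia as well as neurons, was at 29.6, 32.9, 16.6, 8.75, 11.6 and 11.6 CPM in C1 to C6, and C2 was 3.76-fold higher than C4 (95% interval 2.30 to 6.45). KCNK5 had 8, 13, 5, 2, 0 and 23 counts in C1 to C6, with the largest number in C6.

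KCNMA1 encodes the pore of the large-conductance calcium-activated channel, which promotes bursts in rodent somatotrophs and lactotrophs. It was at 84.9, 88.9, 63.6, 84.9, 21.1 and 8.58 CPM in C1 to C6, and C2 was 10.4-fold higher than C6 (95% interval 6.34 to 18.1). C4 lay within the span of C1, C2 and C3, and was the highest library with DESeq2 size factors and in TPM, while C5 and C6 were well below. The beta subunits that modify this pore split by library. KCNMB1, the smooth muscle beta subunit, was at 3.00, 7.32, 6.05, 105, 0.413 and 11.6 CPM in C1 to C6, and C4 was 255-fold higher than C5 (95% interval 45.4 to 10122). KCNMB4, the neuronal beta subunit, was at 27.9, 26.0, 35.9, 27.1, 8.68 and 6.56 CPM in C1 to C6, lowest in C5 and C6 like the pore. Its highest level was in C3, where the pore was below C1, C2 and C4. The interval of KCNMB4 in C3 overlapped those in C1, C2 and C4, and in TPM it was highest in C4. KCNMB2 had 2, 2, 5, 8, 24 and 6 counts in C1 to C6, most of them in C5. For each count of KCNMA1 there were 1.24 (95% interval 1.02 to 1.51) counts of KCNMB1 in C4 and 1.35 (95% interval 0.692 to 2.70) in C6, against 0.0952 (95% interval 0.0532 to 0.159) in C3, a pair chosen after the values were seen. The 9 smooth muscle and pericyte markers summed to 107, 121, 291, 8232, 91.8 and 325 CPM in C1 to C6, with 4, 4, 5, 7, 3 and 5 of them at 10 counts or more. They were highest in C4, like KCNMB1, and their part in it was not tested.

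KCNN genes encode small-conductance calcium-activated channels, which follow bursts with a pause. KCNN2 was at 28.3, 31.8, 29.1, 77.0, 77.3 and 19.7 CPM in C1 to C6, and C5 was 3.93-fold higher than C6 (95% interval 2.77 to 5.70). C4 and C5 were level with each other and above the other 4 libraries. KCNN3 had 8, 11, 12, 9, 9 and 19 counts in C1 to C6, with a chi-square adjusted p of 0.0411, which was 0.0732 with TMM scaling and 0.0539 with DESeq2 size factors. KCNN1 and KCNN4 had at most 3 counts. KCNT2, a sodium-activated channel, was at 0, 0.366, 0.757, 12.7, 20.3 and 6.56 CPM in C1 to C6, and C5 was at least 15.7-fold higher than C1. C5, C4 and C6 stood above C1, C2 and C3, as did the sum of the 9 endocrine pituitary markers. The sums of those markers are given above for each library, and their part in KCNN2, KCNT2, KCNA5 and KCNB2 was not tested. KCNT1 had at most 3 counts.

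**Figure D4:**
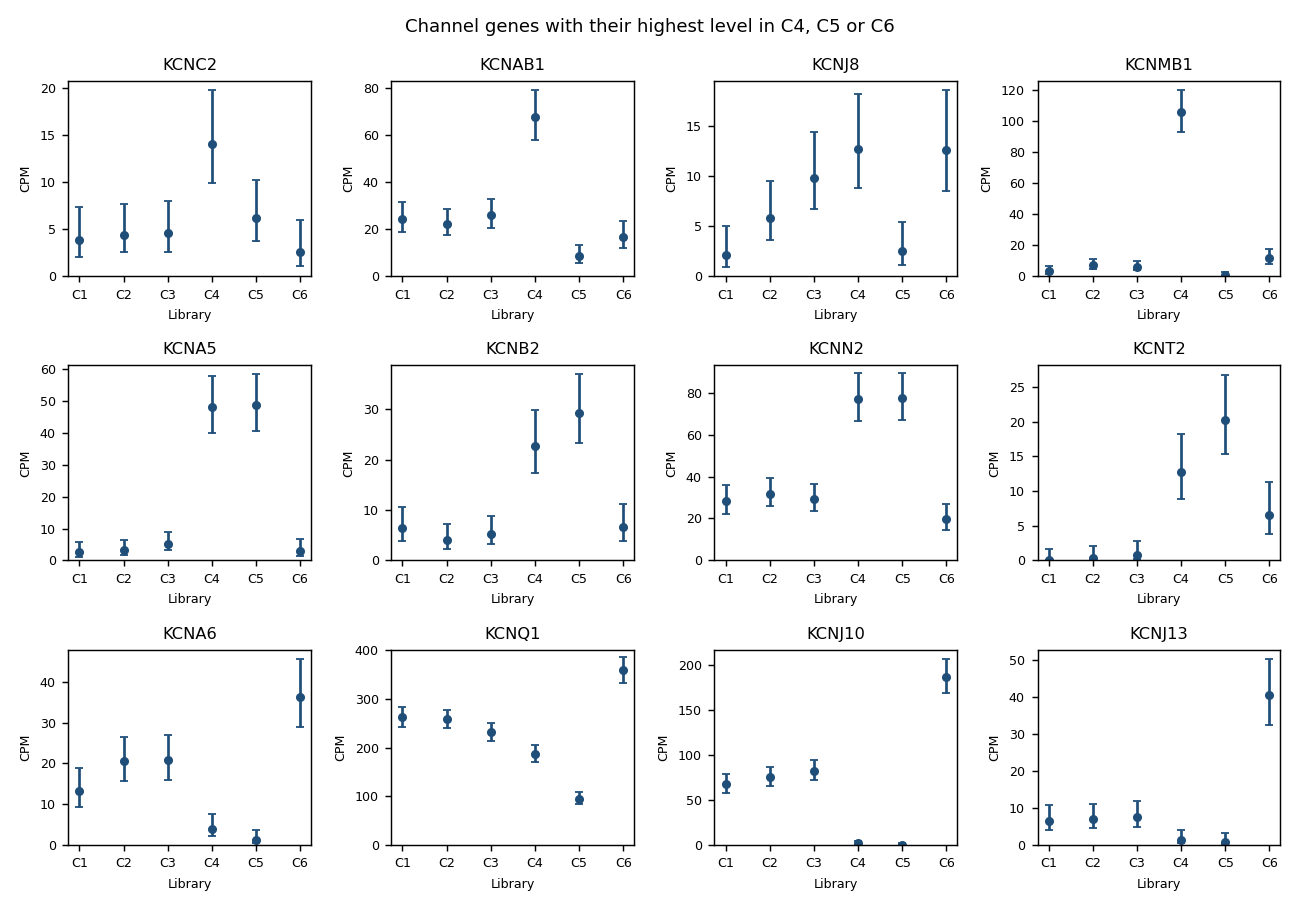
Level in CPM of the 12 described channel genes whose highest library is C4 (top row), C5 (middle row) or C6 (bottom row), with points for the libraries, 95% Wilson intervals as bars and linear axes from 0. KCNA5, KCNB2 and KCNN2 are high in both C4 and C5, KCNAB1 and KCNMB1 in C4 alone, and KCNJ10 and KCNJ13 reach 187 and 40.4 CPM in C6.

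HCN2, a channel of rhythmically firing cells, had 8, 11, 9, 1, 2 and 0 counts in C1 to C6. HCN4, the main pacemaker channel of the heart, had 1, 7, 8, 1, 0 and 4 counts in C1 to C6, and HCN3 had none.

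Channel partners that do not carry the KCN name were set beside the channels, from a list of 24 genes. Of these, 17 were measured and all 17 were called, where the share over all features was 80.9%. The KCND partners DPP6 and DPP10 were at 613, 411, 375, 218, 147 and 176 CPM in C1 to C6 and at 96.5, 60.4, 98.0, 17.5, 3.72 and 25.7 CPM in C1 to C6. The sulphonylurea receptor gene ABCC8, partner of KCNJ11, was at 8.58, 14.3, 32.2, 0.438, 1.24 and 18.7 CPM in C1 to C6, while ABCC9, partner of KCNJ8, had 0, 1, 2, 5, 2 and 1 counts in C1 to C6. PEX5L, which binds HCN channels, was at 6.86, 2.93, 6.05, 4.81, 12.8 and 51.0 CPM in C1 to C6, and was highest in C6. Genes that place KCNA channels along axons followed KCNA1 in part. CNTN2 was at 102, 106, 78.7, 0.875, 5.37 and 41.4 CPM in C1 to C6, LGI1 at 406, 387, 446, 25.8, 32.7 and 132 CPM in C1 to C6 and ADAM22 at 281, 272, 269, 10.1, 5.37 and 15.6 CPM in C1 to C6. CNTNAP2 was at 1548, 1575, 1448, 155, 111 and 149 CPM in C1 to C6. The scaffold gene ANK3 was at 661, 589, 516, 132, 142 and 142 CPM in C1 to C6.

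The counts and TPM of a gene together carry its mean length, and for some channel genes that length differed between libraries. For features with at least 50 counts, the TPM for each CPM changed between a library and C2 by 1 common factor, within 2%, in 50.8 to 58.8% of features. For the channel genes, TPM for each CPM was divided by that factor and inverted, which gives a mean length relative to the library where it was shortest. Of 42 members with at least 20 counts in at least 2 libraries, 16 stayed within 5% over these libraries, among them KCNQ3, KCNJ14, KCNJ9 and KCNJ10. In 8 the longest was more than 2 times the shortest, and 14.9% of all features with the same depth passed that limit. With at least 20 counts in all 6 libraries, 5 of 12 members passed it, beside 23.2% of all features of that depth, and the median spread was 1.51 over the 12 members and 1.04 over these features.

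KCNK1 had the widest spread. Its implied mean length in C1 to C6 was 1.01, 1, 1.37, 12.8, 2.66 and 7.21 times that in C2. Its level in TPM was 2244, 2505, 2229, 76.9, 338 and 147 TPM in C1 to C6, so that C4 was below C5 in TPM although it was above it in CPM. KCNJ6 was 6.38 times as long in C5 as in C1, on 22 counts in C5. KCNIP1 was 4.99 times as long in C5 as in C3, and KCNIP4 3.93 times as long in C6 as in C1. KCNJ3, KCNK12, KCNH1 and KCNK13 had spreads between 2.55 and 2.76. In all 8 genes the shortest library was C1, C2 or C3 and the longest was C4, C5 or C6. The share of all features past that limit with the same direction was not counted, so this is not shown to be particular to channel genes. KCND2 varied less, with a spread of 1.43. The files do not give transcripts, and no source used here gives the method behind the TPM or the lengths.

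**Figure D5:**
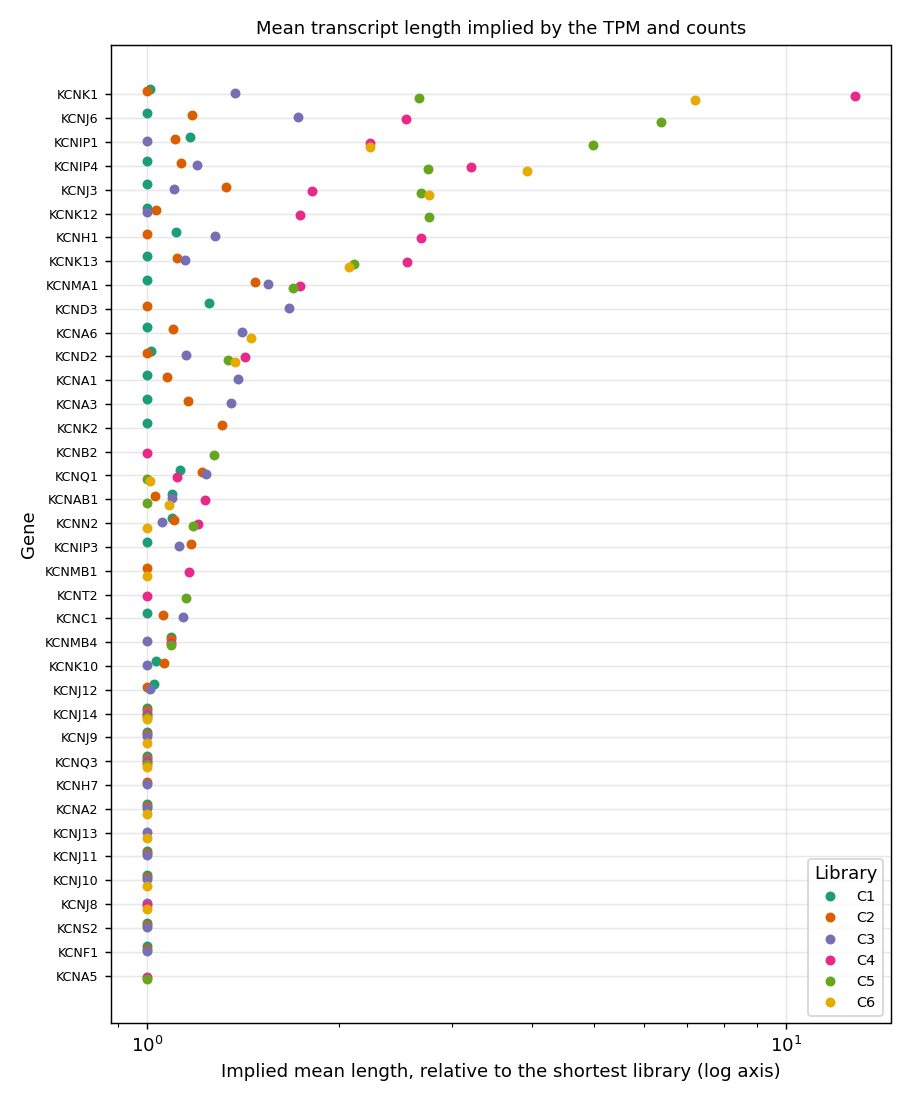
Mean length implied by the deposited TPM and counts for 38 channel genes, relative to the library in which it was shortest, on a log axis, with a coloured point for each library with at least 20 counts. KCNK1 reaches 12.8 in C4, while 13 of the genes shown stay within 5%.

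The other 53 members fell short of 60 counts over the libraries. Of these, 13 had 0 counts in every library: KCNA10, KCND1, KCNS1, KCNV2, KCNE2, KCNJ1, KCNJ4, KCNJ15, KCNK16, KCNK17, KCNK18, KCNU1 and HCN3. Taken as at most 3 counts, a count of 0 allows a level of up to 1.10 CPM in C2, the deepest library, and 1.51 CPM in C6, the shallowest. The remaining 40 had at most 24 counts in any library. Low members with most of their counts in a single library or pair were KCNA4 and KCNMB2 in C5, KCNE4 in C4 and C6, and KCNH6 in C4 and C5, named after their values were seen.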

How the data were processed

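RNA labelled as pituitary from 6 sheep was made into amplified full-length complementary DNA with Oxford Nanopore kits, per the labels' protocols. The submitters' processing notes name minimap2 2.17-r941 as a tool. The quantification tool, genome build, annotation and filters were not given in the sources used here. The authors' deposited estimated counts are not normalized. They were rounded to whole numbers, and between 24.0 and 29.8% of a library's values changed by it. The authors' deposited TPM sum to 1000000 in each library. Left out of each were 4 entries without measurements.

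CPM is the rounded count divided by the library's sum of gene counts. Homogeneity was tested by chi-square with Benjamini-Hochberg adjustment over 13248 features (SciPy 1.17.1), and the test was tried on simulated counts. Ratios have exact conditional (Clopper-Pearson) intervals and levels Wilson intervals. In ratios a count of 0 in a library was replaced by 3 counts, giving a lower bound. The highest and lowest library of a gene were picked from the same counts, and the intervals do not allow for that choice. Alternatives used edgeR 4.0.16 TMM factors, DESeq2 1.42.0 size factors, TPM, other thresholds, thinned counts and left-out libraries. Values in every library are given for members with at least 60 counts over the libraries and at least 10 CPM in some library. The subfamilies go by the letter after KCN, with auxiliary subunits (KCNAB, KCNIP, KCNMB) apart. The members and lists were chosen with earlier results of these data known. All 98 symbols were found in a RefSeq table (ARS-UI_Ramb_v3.0), used for names only. Some genes matching the name rule or in a list are not reported here.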

Additional observations from a re-analysis of the deposited data

How the results depend on the processing

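The count of 45 channel genes called (with the share of all features called in parentheses, 80.9%) was 44 with TMM scaling (79.8%), 43 with DESeq2 size factors (79.6%), 41 of 43 with thinned counts (80.3%), and 42 with a ratio of 3 (64.3%). With count minimums of 30, 120 and 1 it was 53 of 56 (80.4%), 36 of 36 (80.2%) and 56 of 85 (60.9%). Leaving out each library in turn (73.9 to 78.9%) gave 43 of 43 without C1, and 42 of 42 without C2, C4 or C6. It gave 42 of 43 without C3, where KCNH7 was lost, and 42 of 43 without C5, where KCNQ1 was lost. KCNN3 was lost with TMM scaling, and KCNN3 and KCNH7 with DESeq2 size factors and with thinned counts. C4, C5 and C6 alone gave 18 (40.2%) and C1, C2 and C3 alone 2 (10.3%). The summed level in C1 over that in C5 was 6.74-fold with TMM scaling, 6.05 with DESeq2 size factors, 6.14 in TPM, 5.86 without KCND2, 4.84 without KCND2 and KCNIP4, and 5.45 with the hormone genes left out of the total. The highest over the lowest sum was 1.42 within C4, C5 and C6 and 1.30 within C1, C2 and C3. Of the 42 described genes, 40, 38 and 33 kept their highest library with TMM scaling, DESeq2 size factors and TPM. KCNK1, KCNK12 and KCNMA1 were among those that changed under a scaling, and KCNMA1 was highest in C4 with DESeq2 size factors. No described gene reversed between its highest and lowest library in CPM under these scalings or in TPM. KCNJ14 fell under a ratio of 2 with DESeq2 size factors (1.96) and in TPM (1.35), and KCNH7 in TPM (1.43). The common factor in TPM for each CPM, relative to C2, was 0.927 in C1, 1.17 in C3, 2.19 in C4, 2.34 in C5 and 1.79 in C6. A ratio in TPM between 2 libraries carries this factor, also where the implied length stays the same, as for KCNJ14. Relative to CPM, levels in C5 shifted by 0.21 (TMM) and 0.31 (DESeq2) and those in C3 by -0.10 and -0.16 on the log2 scale. Beyond the common factor in TPM, the cause of these changes was not tested. No paired analysis was possible because the labels put no library in a group. Depth limits members under about 1.10 to 1.51 CPM, the level of 3 counts.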

Other observations

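Which 3 libraries were the highest differed among the 45 tested channel genes, with 11 different sets. The 3 highest libraries were C1, C2 and C3 for 25 of the 45 genes, which is 55.6%, and for 38.8% of all 13248 features tested. They were C4, C5 and C6 for 2 of the 45, KCNT2 and KCNB2, and for 22.8% of all features. For KCNB2, C6 at 6.56 and C1 at 6.43 CPM did not differ beyond their intervals. C2, C3 and C6 were the 3 highest for 6 of the 45 (KCNA2, KCNA6, KCNH7, KCNJ10, KCNJ13 and KCNN3), and for 4.86% of all features. C1, C3 and C4 were the 3 highest for 3 of the 45, and for 2.03% of all features. In these 3 genes too the intervals of C1 and C2 overlapped. The remaining 9 genes were spread over 7 sets with 1 or 2 genes each. These shares describe the 6 libraries, which were put in no group.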
